A study of Mus musculus with 27 samples.

Results

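Skeletal muscle builds its contractile machinery from paired genes, of which fast (type II) fibres use one set and slow (type I) fibres another. The 10 genes described here are such isoforms: the fast myosin heavy chains Myh1, Myh2 and Myh4 and the slow Myh7, the fast troponins Tnnt3 and Tnnc2 and their slow partners Tnnt1 and Tnnc1, and the calcium pumps Atp2a1 (fast) and Atp2a2 (slow). They were taken by gene symbol from a table of 30154 entries, with no threshold on their values. All 10 were listed once and passed the filter on low values, which kept 18443 entries.

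The libraries came from bone marrow, periosteum and muscle of the femur and tibia of mice that carried CreER under the Prx1 promoter, the tdTomato reporter Ai14 and a Rag1 mutation, so that all groups share these alleles and the tamoxifen that switched the reporter on. Prx1-expressing cells without the leukocyte protein CD45 were sorted by surface proteins into 3 subpopulations. P1 lacked CD105 and carried CD200, P2 lacked both proteins, and P3 carried CD105 whatever its CD200, with 3 libraries for each of the 9 combinations of tissue and subpopulation. The digestion took 60 minutes for muscle tissue, against 20 minutes for periosteum. The libraries were drawn from the same animals, but which animal gave which library was not stated, so the tests treated libraries as independent although some may share an animal.

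In a sarcomere, myosin heavy chains form the thick filament and pull on actin, troponin C senses calcium on the thin filament, and troponin T ties it to tropomyosin. The sarcoplasmic reticulum pumps encoded by Atp2a1 and Atp2a2 return calcium to its store so that the fibre can relax. Mouse limb muscle is mostly fast: Myh4 encodes the type IIb chain, Myh1 the IIx chain, Myh2 the IIa chain and Myh7 the type I chain, while Atp2a2 also makes the housekeeping pump of many other cells.

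The 3 fast myosin genes stand next to each other on the forward strand of chromosome 11 (GRCm38), Myh2 at chr11:67171027-67197517, Myh1 at chr11:67200052-67224575 and Myh4 at chr11:67238029-67260446. The other members are scattered: Myh7 and Tnnc1 on chromosome 14, Tnnt3, Tnnt1 and Atp2a1 on chromosome 7, Tnnc2 on chromosome 2 and Atp2a2 on chromosome 5. RefSeq promoters (GRCm38.p6) were at hand for 8 of the 10 members, with none for Tnnt3 and Atp2a2. The 250 bases before the start of the 3 fast myosin genes are shown because these close relatives, side by side in the genome, were read at very different levels in the same libraries. Capitals mark the letters TATAAA on either strand and a stretch of 20 bases that all 3 hold.
Myh2, chr11:67170777-67171026, forward strand: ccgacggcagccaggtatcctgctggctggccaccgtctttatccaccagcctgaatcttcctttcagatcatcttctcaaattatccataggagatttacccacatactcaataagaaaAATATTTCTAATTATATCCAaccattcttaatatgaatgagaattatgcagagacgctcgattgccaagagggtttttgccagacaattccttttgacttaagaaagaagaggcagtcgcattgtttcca
Myh1, chr11:67199852-67200101, forward strand: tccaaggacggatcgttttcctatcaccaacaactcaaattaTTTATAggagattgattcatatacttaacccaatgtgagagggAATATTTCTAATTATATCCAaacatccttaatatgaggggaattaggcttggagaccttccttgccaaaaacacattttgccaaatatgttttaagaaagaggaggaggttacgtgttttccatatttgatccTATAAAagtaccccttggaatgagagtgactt
Myh4, chr11:67237562-67237811, forward strand: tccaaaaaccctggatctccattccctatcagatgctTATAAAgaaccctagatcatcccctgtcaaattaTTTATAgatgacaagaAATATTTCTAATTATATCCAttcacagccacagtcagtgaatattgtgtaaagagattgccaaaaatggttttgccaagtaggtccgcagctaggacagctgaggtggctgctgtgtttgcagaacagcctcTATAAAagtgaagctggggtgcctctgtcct

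The shared stretch AATATTTCTAATTATATCCA began 165 bases before the start of Myh1, 130 bases before that of Myh2 and 163 bases before that of Myh4, and 3 of 32851 promoters of the same length held it, all of them these. TATAAA, searched on both strands, was in 12.4% of all promoters. Its copy nearest the start lay 32 bases upstream in Myh1 and 31 bases upstream in Myh4, and the window of Myh2 held none. Counted from the shared stretch, the Myh2 window ends before the place where Myh1 and Myh4 hold this copy. The lack in Myh2 therefore depends on the start used, and the bases past it were not searched. The letters CANNTG (E-box) were in 66.2% of all promoters and in neither Myh1 nor Myh2, while Myh4 held 2. These matches describe the letters and say nothing of binding. The start that GENCODE M21 gives lies downstream of the RefSeq start used here for Myh4 and upstream of it for Myh1.

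The values are normalized counts deposited by the study, whose sums per library ran from 11220962 to 12301029 in muscle P1, 18148837 to 18837251 in P2 and 10563364 to 11509951 in P3, and from 8639660 to 26232142 over all 27 libraries. Read depth is unknown, because the reads behind the normalized counts could not be recovered. A gene was called changed at an adjusted p under 0.05 (limma, Benjamini-Hochberg over 18443 genes) with a log2 fold change beyond 1.5 in either direction. Fold changes are differences of means of log2(normalized count + 1), a scale that understates changes of low genes. Each standard error (SE) and p rests on a spread per gene shared by all 27 libraries, not on that of the compared groups. With the compared groups alone, more genes were called between each pair of muscle groups. Fewer were called for muscle P1 and P2 against periosteum and for muscle P2 against bone marrow. In such bulk libraries, fewer cells of a type and less RNA per cell cannot be told apart.

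Among the muscle subpopulations, P2 held the fibre transcripts by far. The 10 genes together took 9.13%, 4.08% and 6.45% of all normalized counts in the 3 muscle P2 libraries, against 0.098% to 0.221% in P1 and 0.0159% to 0.0205% in P3. Against P1, 5 of the 6 fast members were higher in P2 (Myh1, Myh4, Tnnt3, Tnnc2 and Atp2a1), none of the 4 slow members was, and the slow pump Atp2a2 was lower. Of all genes tested, 8.21% were called in this comparison, 4.62% as higher in P2 and 3.59% as lower, and 16.9% lay higher in every P2 library than in any P1 library and 19.0% lower. Against P3, 9 members were higher in P2, where 11.2% of all genes were called, 5.55% as higher and 5.61% as lower, and Atp2a2 was not called. In that comparison 18.1% of all genes lay higher in P2 without overlap and 26.1% lower. Between P1 and P3 only Tnnc1 was called, higher in P1, where 0.466% of all genes were called, 0.141% as higher and 0.325% as lower.

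**Figure D1:**
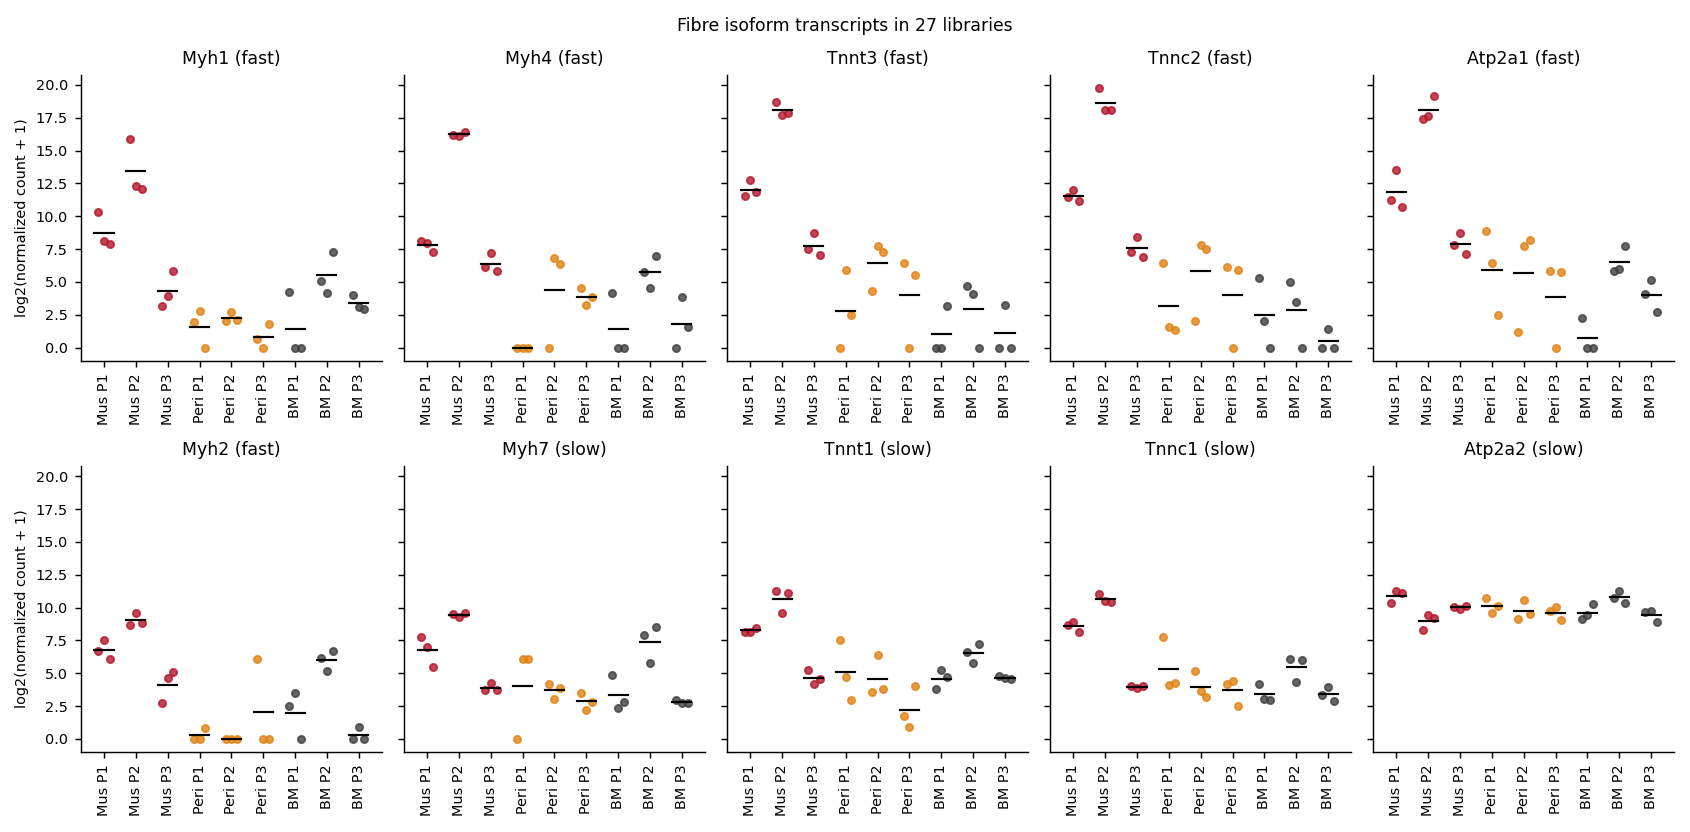
The 10 fibre isoforms in 27 libraries: each point is a library, the y axis is log2(normalized count + 1), black bars are means of 3 libraries, and groups are muscle (Mus, red), periosteum (Peri, orange) and bone marrow (BM, dark grey) P1, P2 and P3. Muscle P2 is the highest group for 9 genes and the lowest for Atp2a2.

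Myh4, the type IIb heavy chain, showed the widest step of the 10 between P1 and P2. It measured 74646, 71598 and 88995 normalized counts in the P2 replicates 1 to 3, 280.3, 256 and 156 in P1, and 70.2, 148 and 56.1 in P3. The 3 P2 libraries lay close together and far above both other groups, and every P1 library lay above every P3 library. Myh4 was higher in P2 than in P1 by 8.44 ± 1.4 on the log2 scale (SE, adjusted p = 0.000251) and than in P3 by 9.85 ± 1.4 (adjusted p = 2.48e-05). The step from P3 to P1 was 1.41 ± 1.4 and did not pass the test (adjusted p = 1.0). The SE of Myh4 was the same in every comparison and is not the spread of the muscle groups alone. It also took in libraries outside muscle, such as those of periosteum P2 at 0, 112.8 and 82.1 normalized counts.

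Myh1, the IIx chain, stood out in a single library of P2 and of P1. It reached 59469.6 normalized counts in P2 replicate 1 against 5048 and 4437 in replicates 2 and 3, and 1265 in P1 replicate 1 against 274 and 231. In P3 it measured 8.2, 14.5 and 54.9. The groups did not overlap, and Myh1 was higher in P2 than in P1 by 4.67 ± 1.26 (SE, adjusted p = 0.0192). Without P2 replicate 1 this difference was 3.45 with an adjusted p of 0.136, and the call was lost, as it was without P1 replicate 2 or replicate 3. Against P3 the difference was 9.11 ± 1.26 (adjusted p = 1.89e-05).

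Myh2, the IIa chain of oxidative fast fibres, gave 404, 776 and 448 normalized counts in P2, 103, 187 and 67 in P1 and 5.6, 23.7 and 32.6 in P3, again without overlap between groups. The difference between P2 and P1 was 2.24 ± 1.24 (SE) and was not called (adjusted p = 0.334). Against P3 it was 4.88 ± 1.24 and was called (adjusted p = 0.00955), and that call was lost without P3 replicate 1 (adjusted p = 0.0685).

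Myh7 is the chain of slow type I fibres. Its normalized counts were 715, 611 and 769 in P2, 221, 127 and 43.7 in P1, and 12.1, 18.1 and 11.9 in P3. P2 again lay above P1 in every library, but the difference of 2.68 ± 1.23 (SE) was not called (adjusted p = 0.209). The difference from P3, 5.56 ± 1.23, was called (adjusted p = 0.00318).

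The 3 fast chains resemble each other and Myh7 resembles the cardiac chain Myh6, so reads can be shared. For each gene, the longest transcript marked as principal in GENCODE M21 was used, or the longest protein-coding one where none was marked. The same transcript set the lengths per kilobase below. Of its 50-base words, 26.7% of those of Myh1 and 26.9% of those of Myh2 also occurred in other genes (19.7% between these 2), and 18.9% of those of Myh4 (10.6% in Myh1). For Myh7 the share was 22.2%, all of it in Myh6, which was listed at 0 in all 9 muscle libraries. The library kit does not mark strand, so reads from antisense genes that overlap exons of Myh1 (Myhas), Myh2 (9430073C21Rik) and Myh7 (Mhrt, Gm29015 and Gm31251) cannot be told apart from theirs. How the study counted such reads is not given in the sources used here, and the values of Myh1 and Myh2 beside Myh4 are uncertain to that extent.

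Set on a scale per kilobase of transcript, the mix of the 4 heavy chains differed between the subpopulations. Myh4 made up 55.5%, 91.9% and 94.1% of the 4 in the P2 libraries, 15.2%, 30.6% and 31.7% in P1 and 73.5%, 72.8% and 36.4% in P3. Myh1 took 43.7% of the mix in P2 replicate 1 and 67.8%, 32.5% and 46.3% in the P1 replicates. The slow chain Myh7 contributed 0.513%, 0.757% and 0.785% in P2, 11.6%, 14.7% and 8.55% in P1 and 12.2%, 8.61% and 7.46% in P3. P2 and P1 did not overlap in the share of Myh4, of Myh2 or of Myh7, whereas P1 and P3 overlapped in the share of Myh7, and P3 rested on few normalized counts. No test of these shares was run.

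**Figure D2:**
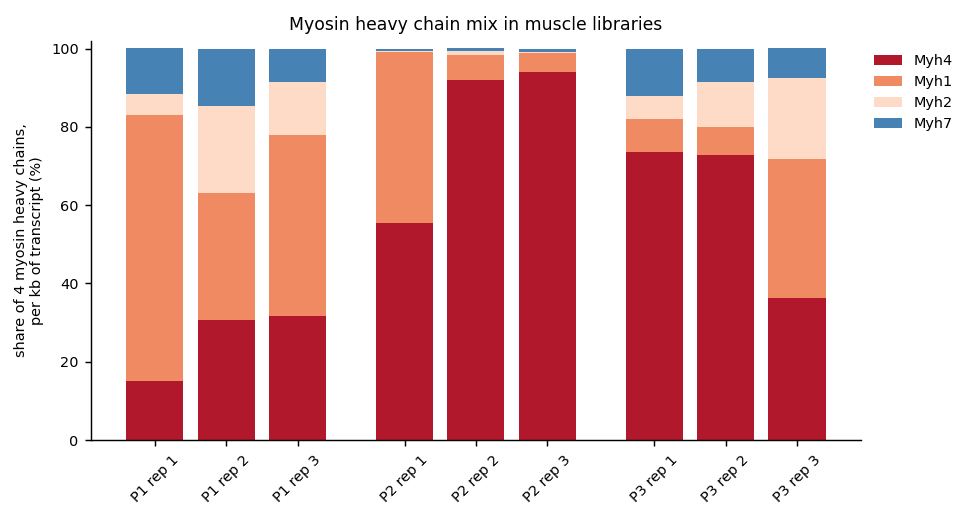
Mix of 4 myosin heavy chains in the 9 muscle libraries: bars are stacked shares (%) of normalized counts per kilobase of transcript, 1 bar per library. Myh4 fills 55.5% to 94.1% of the P2 bars and 15.2% to 31.7% of the P1 bars, and the slow Myh7 fills under 1% of each P2 bar.

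On the thin filament, Tnnt3, fast troponin T, measured 428844, 212460.0 and 234649 normalized counts in P2, 2941, 6844 and 3639 in P1 and 182, 420.5 and 135 in P3. Every P2 library lay above every P1 library, and every P1 library above every P3 library. The difference between P2 and P1 was 6.05 ± 1.6 (SE, adjusted p = 0.0167) and that between P2 and P3 10.31 ± 1.6 (adjusted p = 7.84e-05). The first call was lost without P1 replicate 1, P1 replicate 3 or P2 replicate 1, with adjusted p up to 0.0665.

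Tnnt1, slow troponin T, gave 2421, 785 and 2166 normalized counts in P2, 282, 287 and 356 in P1 and 37.5, 17.2 and 22.7 in P3. The groups stood in the same order as for Tnnt3 and did not overlap. The step from P1 to P2, 2.38 ± 1.06 (SE), did not pass (adjusted p = 0.191), and that from P3 to P2, 5.97 ± 1.06, did (adjusted p = 0.000355).

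Tnnc2, the fast troponin C, measured 914956, 272643 and 273561 normalized counts in P2, 2831, 4145 and 2241 in P1 and 157, 337 and 122 in P3. Replicate 1 of P2 stood above its group for Tnnc2, as it did for Tnnt3 and Myh1. Tnnc2 was higher in P2 than in P1 by 7.1 ± 1.74 (SE, adjusted p = 0.0096) and than in P3 by 11.09 ± 1.74 (adjusted p = 8.63e-05). Its exons overlap on the opposite strand those of Ube2c, a gene of dividing cells, which was at 426.6 to 720.4 normalized counts in muscle P2. Ube2c was at 51.0 to 124.3 in muscle P3. In bone marrow P2 it was at 13567.7 to 28235.3, where Tnnc2 was at 0 to 31.1. A share of Ube2c reads in Tnnc2 was not tested.

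Tnnc1, the troponin C of slow and cardiac muscle, gave 2057, 1439 and 1392 normalized counts in P2, 400.0, 477 and 281 in P1 and 15.2, 13.6 and 15.4 in P3. It was the only member called between P1 and P3, with a difference of 4.59 ± 0.95 (SE, adjusted p = 0.0243). That call was lost when any 1 of the 6 libraries was left out, with adjusted p from 0.0637 to 0.122. The difference between P2 and P1, 2.08 ± 0.95, was not called (adjusted p = 0.207), and that between P2 and P3, 6.67 ± 0.95, was (adjusted p = 2.6e-05).

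The calcium pumps went apart between P1 and P2. Atp2a1, the fast fibre pump, measured 173476, 203026 and 593024 normalized counts in P2, 2457, 12093 and 1712 in P1 and 229, 433 and 138 in P3. Here replicate 3 stood highest in P2 and replicate 2 in P1, and the groups did not overlap. Atp2a1 was higher in P2 than in P1 by 6.22 ± 1.68 (SE, adjusted p = 0.0186) and than in P3 by 10.16 ± 1.68 (adjusted p = 0.000159). Without P1 replicate 1, P1 replicate 3 or P2 replicate 3 the first call was lost, with adjusted p up to 0.0879.

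Atp2a2, the pump of slow fibres and of many other cells, went the other way. It gave 312.5, 709.6 and 602 normalized counts in P2, 1277, 2449.6 and 2264 in P1 and 1073, 930.4 and 1113 in P3. All P2 libraries lay below those of both other groups, and all P1 libraries above those of P3. It was lower in P2 than in P1 by -1.91 ± 0.48 on the log2 scale (SE, adjusted p = 0.0112), a call lost without P1 replicate 2, P1 replicate 3 or P2 replicate 1 (adjusted p up to 0.0732). Against P3 the difference was -1.02 ± 0.48 (adjusted p = 0.194), and that between P1 and P3, 0.89 ± 0.48, did not pass either (adjusted p = 0.943). Rabep2 and Gm43361 overlap exons of Atp2a1 and Atp2a2 on the opposite strand.

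**Figure D3:**
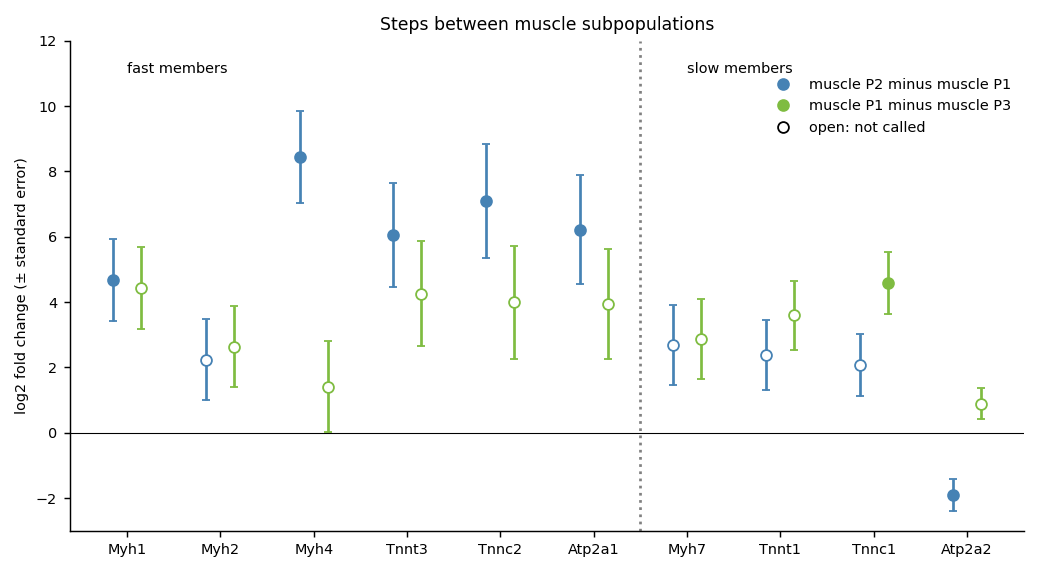
Steps between muscle subpopulations for the 10 members: points are log2 fold changes of P2 minus P1 (blue) and P1 minus P3 (green), bars are standard errors from limma, and open points were not called. P2 minus P1 was 2.24 to 8.44 for the fast members and -1.91 to 2.68 for the slow ones, and P1 minus P3 was 1.41 to 4.44 and 0.89 to 4.59.

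Read by class, the step from P1 to P2 had a median of 6.14 over the 6 fast members and 2.23 over the 4 slow ones, against -0.24 over all genes. From P3 to P2 the fast members differed by 4.88 to 11.09 and the slow ones by -1.02 to 6.67, against a median of -0.48 over all genes. From P3 to P1 the medians were 3.97 and 3.23, against -0.07. All 10 members lay higher in P1 than in P3 in every library, as 12.8% of all genes did (14.4% lay lower). At an unadjusted p under 0.05, 8 of the 10 members differed between P1 and P3, as did 6.19% of all genes. The 3 comparisons share libraries.

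The call count between P2 and P1 was sensitive to single libraries. It was 6 with all libraries, 2 without P1 replicate 3 and 3 without P2 replicate 1, while Myh4 and Tnnc2 stayed called whichever library was left out. Over all settings the adjusted p from limma reached 0.0154 for Myh4 and 0.0878 for Tnnc2. Tnnc2 thus lost its call under a setting other than leaving out a library. When libraries were instead rescaled to equal totals, 26.8% of the called genes were higher in P2 than in P1 in place of 56.3%, and 24.5% in place of 49.7% against P3. The median of all genes then moved to -0.77 and -1.09, and no member changed direction between muscle groups.

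Within each library, the ratio of a fast gene to its slow partner does not depend on library size. For troponin T, log2 of the Tnnt3 to Tnnt1 ratio was 7.47, 8.08 and 6.76 in P2, 3.38, 4.57 and 3.35 in P1 and 2.25, 4.53 and 2.53 in P3. For troponin C (Tnnc2 to Tnnc1) it was 8.8, 7.57 and 7.62 in P2, 2.82, 3.12 and 2.99 in P1 and 3.29, 4.53 and 2.9 in P3. P2 stood above both other groups in both ratios, and P1 and P3 overlapped in both.

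The pump ratio (Atp2a1 to Atp2a2) was 9.11, 8.16 and 9.94 in P2, 0.94, 2.3 and -0.4 in P1 and -2.22, -1.1 and -3.01 in P3. It was the only ratio of the 4 in which P1 and P3 did not overlap, and the only one that turned in favour of the slow gene within muscle. The summed fast heavy chains stood to Myh7 at 7.16 ± 0.35 (SD, n = 3) in P2, 2.91 ± 0.43 in P1 and 3.16 ± 0.41 in P3. Fast normalized counts outnumbered slow ones in all 9 muscle libraries for the myosins and both troponins, whose partners have transcripts of nearly equal length.

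**Figure D4:**
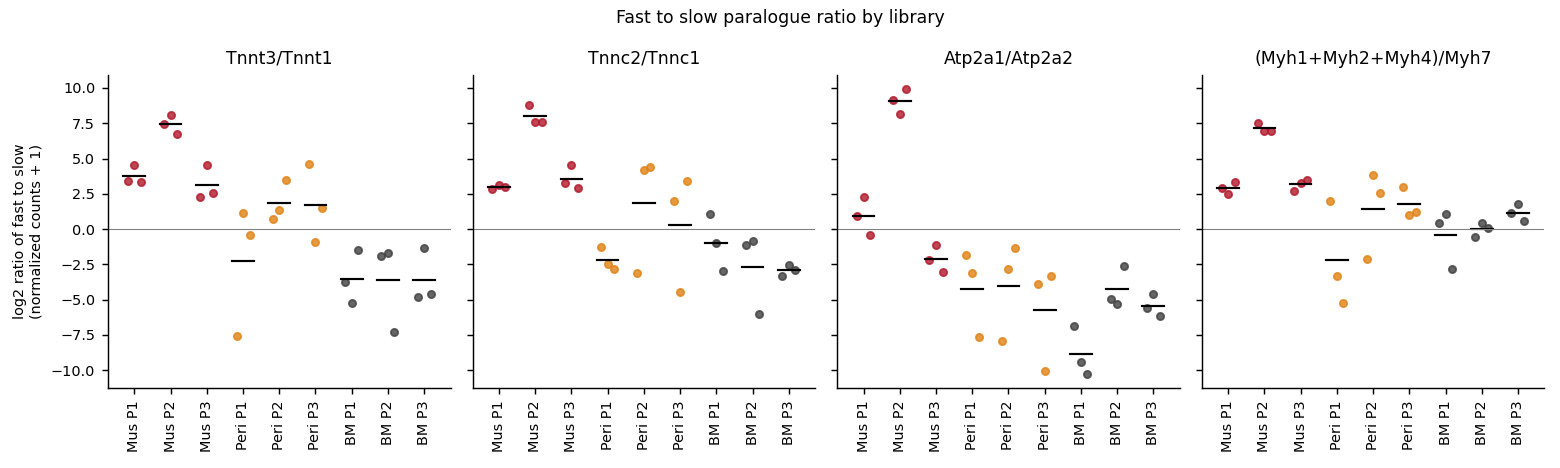
Fast to slow ratios by library: points are log2 ratios of normalized counts (each + 1) in 27 libraries, black bars are means of 3 libraries, and the grey line marks equal values. Muscle P2 lies above muscle P1 and P3 in all 4 panels, and most bone marrow libraries lie below 0 for the troponins and the pump.

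Per kilobase of transcript, the members fell into tiers in P2. Tnnc2 led with 695791 ± 529393 normalized counts per kilobase (SD, n = 3) and overlapped Tnnt3 with 289955 ± 118215. Atp2a1 lay below both in every library with 92947 ± 67346, and Myh4 below that with 13034 ± 1544. Myh1 averaged 3779.8 ± 5196, over a range from 729.6 to 9779.6 that took in the slow troponins. These stood at 2259.5 ± 514 for Tnnc1 and 1743 ± 857 for Tnnt1, which overlapped. Atp2a2, Myh7 and Myh2 closed the order at 121 ± 45.8, 112 ± 12.8 and 89.2 ± 33.4 per kilobase, within each other's spread.

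In P1, Tnnt3 (4443 ± 2067 per kilobase) and Tnnc2 (4389 ± 1393) led and did not differ beyond their spread, and the 4 heavy chains were the lowest of the 10. In P3, Tnnc2 (293 ± 165), Tnnt3 (244 ± 152) and the pump Atp2a2 (232 ± 21.4) stood together at the top. In the order of the 10 genes, Atp2a2 held rank 3 in P3, rank 5 in P1 and rank 8 in P2, while Myh4 held rank 7, rank 8 and rank 4 and Myh1 rank 8, rank 7 and rank 5 in the same groups.

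Outside muscle the fast members lay below muscle P2 in every library, in part at levels that muscle P3 or, for Myh2, muscle P1 also showed. Over the 9 periosteum libraries, Myh1 ran from 0 to 5.8 normalized counts, Myh4 from 0 to 112.8, Tnnt3 from 0 to 210.3, Tnnc2 from 0 to 229.1 and Atp2a1 from 0 to 467.8. Myh2 was listed at 0 in 7 of them and reached 68.5 in P3 replicate 1 alone. Over the 9 bone marrow libraries the highest values were 155 for Myh1, 125.6 for Myh4, 25.1 for Tnnt3, 38.7 for Tnnc2 and 213.9 for Atp2a1. Myh2 measured 71.6, 35 and 101.9 in bone marrow P2, which overlapped muscle P1, and at most 9.97 in the other bone marrow groups.

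Among the slow members, Myh7 in bone marrow P2 measured 236 in replicate 1, 53.9 in replicate 2 and 370.3 in replicate 3, which overlapped muscle P1. Myh6, which shares 50-base words with Myh7, was at 23.4 to 183.5 in bone marrow P2, so shared reads may bear on these values. Bone marrow P2 was also the highest bone marrow group for Tnnt1 (101 ± 49.7, SD, n = 3), which stayed below muscle P1. Tnnt1 and Tnnc1 were at 187 and 212 in periosteum P1 replicate 1, far above the other 2 libraries of that group. Atp2a2 was present in every library outside muscle, from 469 in bone marrow P3 to 2479 in bone marrow P2.

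Muscle P2 exceeded periosteum P2 in 9 members, all but Atp2a2, where 28.0% of all genes were called, 17.6% as higher in muscle and 10.4% as lower. Myh2 was listed at 0 in all 3 periosteum P2 libraries, so no fold is given. For the others the difference ran from 5.75 ± 1.23 (SE) for Myh7 to 12.84 ± 1.74 for Tnnc2. Against bone marrow P2, 7 members were higher, and Atp2a2 was lower by -1.78 ± 0.48 (adjusted p = 0.00489), where 40.1% of all genes were called, 14.1% as higher and 26.1% as lower. Myh2 (3.01 ± 1.24, adjusted p = 0.0541) and Myh7 (2.04 ± 1.23, adjusted p = 0.188) did not pass. Without muscle P2 replicate 1 the call on Atp2a2 was lost, because its log2 difference fell short of the limit on size at -1.43.

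Muscle P1 exceeded periosteum P1 in all 6 fast members and in none of the 4 slow ones, where 4.9% of all genes were called, 4.34% as higher and 0.558% as lower. Myh4 was listed at 0 in all 3 periosteum P1 libraries, and Tnnt3 was higher by 9.23 ± 1.6 (SE, adjusted p = 0.00104). Without periosteum P1 replicate 1, Tnnt1 and Tnnc1 were called as well, with log2 differences of 4.43 and 4.39. The call on Atp2a1 (5.92 ± 1.68, adjusted p = 0.0386) was lost in 5 of the 6 fits that left out 1 library, staying only without periosteum P1 replicate 1. Against bone marrow P1, 8 members were higher, all but Myh7 and Atp2a2, where 8.34% of all genes were called, 5.4% as higher and 2.94% as lower. Of these, Myh2 lost its call without muscle P1 replicate 2 or bone marrow P1 replicate 3, and Tnnt1 lost it in 5 of the 6 such fits, all but that without bone marrow P1 replicate 2.

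Between muscle P3 and periosteum P3 no member was called, where 3.5% of all genes were called, 2.65% as higher in muscle and 0.851% as lower. Means on the log2 scale were higher in muscle P3 by 2.1 to 4.05 for the fast members (median 3.5). The lowest of these was Myh2, whose libraries overlapped and whose mean normalized count was 20.6 in muscle P3 and 22.8 in periosteum P3. The slow ones were higher by 0.26 to 2.43 (median 0.72), against a median of 0.68 over all genes. At an unadjusted p under 0.05, 4 members differed (Atp2a1, Myh1, Tnnt1 and Tnnt3, with higher means in muscle P3), as did 18.9% of all genes. No other tool was run. Myh2 was called without periosteum P3 replicate 1, the library at 68.5, with a log2 difference of 4.14. Against bone marrow P3 the fast genes Myh2, Myh4, Tnnt3 and Tnnc2 were higher, where 10.4% of all genes were called, 6.14% as higher and 4.25% as lower. Tnnt3 differed by 6.69 ± 1.6 (SE, adjusted p = 0.00648) and Tnnc2 by 7.08 ± 1.74 (adjusted p = 0.00781), and both stayed called whichever library was left out. In bone marrow P3, Tnnt3 and Tnnc2 were above 0 in 1 of 3 libraries each, so the sizes of these differences hang on the 1 added before the logarithm. Myh2 and Myh4 each lost the call in 5 of the 6 such fits, all but those without muscle P3 replicate 1 and without bone marrow P3 replicate 2, respectively.

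Other genes of fast fibres were likewise higher in P2. Of 12 listed, 11 were higher in P2 than in P1, with a median step of 6.62, and 12 were higher than in P3. Myl1, an essential light chain, averaged 325791 ± 53912 normalized counts (SD, n = 3) in P2, 2981 ± 899 in P1 and 263 ± 74.9 in P3. The fast inhibitory troponin Tnni2 averaged 189694 ± 21716 in P2 and 2295 ± 905 in P1. The calls against P1 ran from 5.1 ± 1.29 (SE) for Mylpf, a regulatory light chain, to 7.78 ± 1.19 for the calcium buffer Pvalb, and took in Actn3, Mybpc2, Casq1, Myoz1, Pgam2, Gpd1 and Stac3. Mylk2, the skeletal myosin light chain kinase, was the 1 that did not pass against P1 (4.85 ± 1.71, adjusted p = 0.0815). Between P1 and P3 none of the 12 was called by limma, with a median difference of 2.94.

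Of 12 slow fibre genes listed, 11 were tested and 2 were higher in P2 than in P1, the pump regulator Sln (2.97 ± 0.69, SE) and the LIM protein Fhl1 (2.13 ± 0.63), with a median of 1.61. Against P3, 7 were higher, including the slow light chains Myl2 (7.52 ± 1.28) and Myl3 (7.56 ± 1.49). Between P1 and P3, 3 were called as higher in P1, namely Myl2 (5.64 ± 1.28), Sln (4.71 ± 0.69) and Csrp3 (5.49 ± 1.09). The slow troponin I Tnni1 (1.61 ± 1.51), Myl2, Myl3, Myh7b, Myoz2 and Csrp3 were not called between P2 and P1, and Ankrd2 did not pass the filter. The calcium binder Casq2 and the pump inhibitor Pln had their lowest muscle means in P2, 119 and 76.6, against 1349.9 and 978 in P1. In P3, Casq2 had its highest muscle mean, 2750.1 ± 3103 (SD, n = 3), and Pln averaged 221. None of these differences between muscle groups was called. Tpm3 stood at 6819.9 ± 2566 (SD, n = 3) in P2 and 6325 ± 692 in P1.

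**Figure D5:**
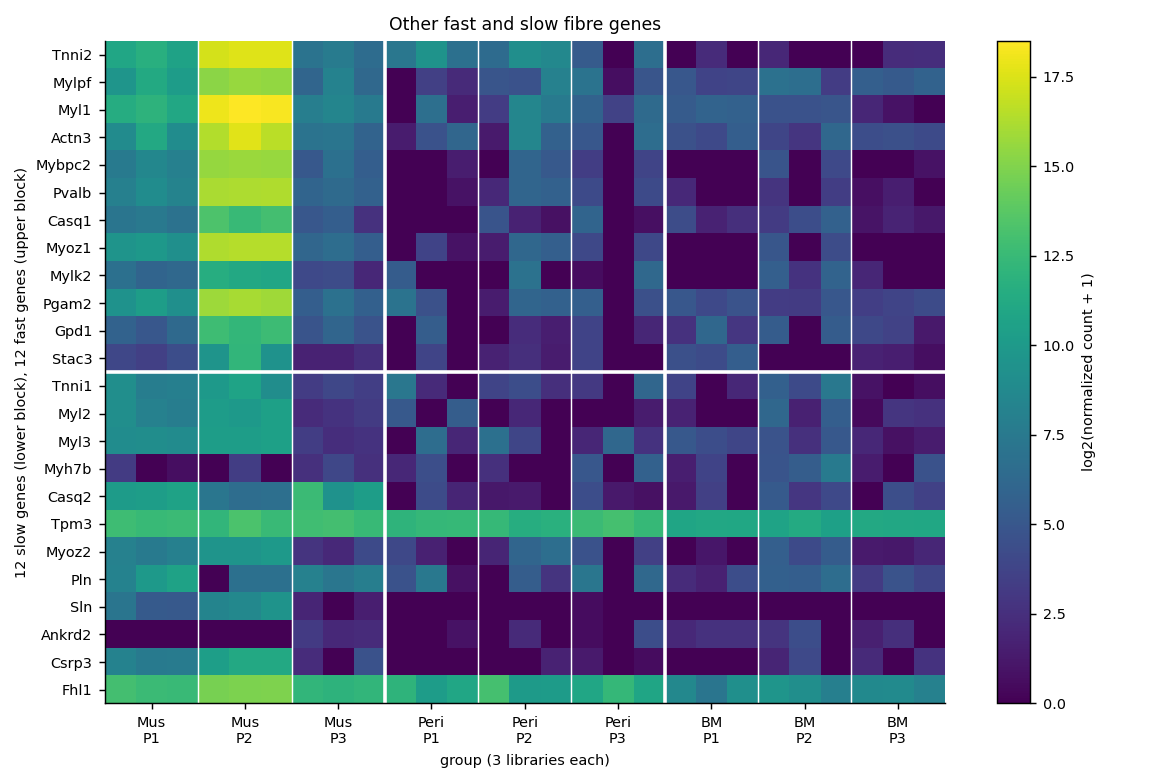
Other fast and slow fibre genes: rows are 12 fast genes (upper block) and 12 slow genes (lower block), columns are 27 libraries by group (Mus muscle, Peri periosteum, BM bone marrow), and colour is log2(normalized count + 1). The fast rows are brightest in the muscle P2 columns, while Tpm3 averages 6325 to 7063 normalized counts in the muscle groups and 1896 to 2211 in those of bone marrow, and Casq2 and Pln are dimmer in muscle P2 than in muscle P1.

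Genes that all fibres share were mostly higher in P2 as well. Of 24 sarcomere and excitation genes, 20 were higher in P2 than in P1 (median 5.14), 23 than in P3, and 3 were higher in P1 than in P3. Skeletal actin Acta1 averaged 1144027 ± 123572 normalized counts (SD, n = 3) in P2, 20945 ± 6088 in P1 and 1125 ± 528 in P3. Of 8 developmental and cardiac sarcomere genes, none was called between P2 and P1, and cardiac actin Actc1 alone was called against P3 (5.94 ± 1.54, SE). The neonatal chain Myh8 averaged 16.9 in P2 and 23.6 in P1. Of 4 non-sarcomeric heavy chains, the smooth muscle chain Myh11 was lower in P2 than in P1 by -6.06 ± 1.83.

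Of 13 transcription factors and cofactors tied to fibre type, Myog, a driver of myoblast fusion, was higher in P2 than in P1 (5.05 ± 1.16, SE, with libraries that overlapped) and Prox1, a homeobox factor of lymphatic endothelium and slow fibres, was lower (-6.11 ± 1.91). Tbx15, which acts in fast fibres, was higher in P2 than in P3 by 2.52 ± 0.81 (SE), as were Sox6, Vgll2, Ppargc1a, Myog and Myod1. Vgll2 was the only factor called between P1 and P3 and was higher in P1. Mef2c averaged 8061 ± 2144 normalized counts (SD, n = 3) in P2 and 390.5 ± 115 in P1 and was not called (adjusted p = 0.239).

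The nearest profiles to the mean of the 6 fast members, by mean absolute log2 difference over 27 libraries after centring, were those of Myot (0.93), Pvalb (0.95), Myoz1 (0.96), Smpx (0.99) and Mybpc2 (1.01), where the median gene was at 3.71. Myot encodes a Z-disc protein and Pvalb the calcium buffer of fast fibres. For Myh7, Tnnt1 and Tnnc1 they were Lmod2 (0.78), Lbx1 (0.88), Klhl34 (0.89), Gm8424 (0.92) and Tpd52l1 (0.95), against a median of 2.28. For Atp2a2 they included Ctsb (0.45), Rbm39 (0.48), Pik3r1 (0.49) and Nptn (0.51), against 1.51, and none of these named is a fibre gene. The libraries that set these distances are the same ones that set the levels above.

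Markers of other cells moved with the same gates. The sum of 8 mural and smooth muscle markers was 47899 to 114896 normalized counts in P1, 941 to 4319 in P2 and 23580 to 30566 in P3, and 6 of the 8 were lower in P2 than in P1. Satellite cell markers split: Pax7 was listed at 0 in all P2 libraries and averaged 299 in P1, Myf5 averaged 1.17 and 593, and 4 of the 8 were lower in P2, whereas Des, which mature fibres also express, averaged 86314 in P2 and 5092 in P1. Endothelial markers summed to 40507 to 56767 in P3, 2918 to 10036 in P2 and 5085 to 14342 in P1, and 7 of the 8 were lower in P2 than in P3.

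Erythroid markers, 7 of 8 found in the table, summed to 170996 to 286624 in P2, 2832 to 11992 in P1 and 24552 to 43128 in P3, and 6 of the 7 were higher in P2 than in P1. In bone marrow P2 the same 7 summed to 7962927 to 12615844. The 8 myofibre markers there summed to 649 to 3091 (median 2688), which overlapped muscle P3. In periosteum P2 the erythroid markers summed to 3410585 to 9423538 and the 8 myofibre markers to 849 to 1869, which also overlapped muscle P3. Of these 8, 6 averaged at least 10 in bone marrow P2, and Ckm was at 0. Fibro-adipogenic markers summed to 123821 to 232074 in P2, 372890 to 404215 in P1 and 284176 to 362881 in P3, so that P2 lay below both other groups in every library, and 1 of 8, Col1a1, was called as lower in P2 than in P1. Of 8 leukocyte markers, 7 were tested and none was called between muscle groups by limma. The 8 myofibre markers themselves summed to 1475539 to 1561713 in muscle P2, 18673 to 33626 in P1 and 1133 to 2309 in P3. The part of these other cells in the results was not tested.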

How the data were processed

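RNA from sorted cells was made into 27 libraries with the SMART-Seq v4 and Nextera XT kits. The authors trimmed reads with Trim Galore, aligned them with STAR and used DESeq2. The deposited signal values are normalized counts per gene. Genome build, annotation and counting tool are not given in the sources used here. Of the low values (under 50), 5.1% to 75.7% per library fell within 0.01 of whole multiples of 1 step, so reads could not be recovered and no count test or counting interval was possible.

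Log2(normalized count + 1) was fitted with limma 3.58.1 (R 4.3.3; lmFit, eBayes with trend) over 9 group means and 27 libraries. The filter kept 18443 of 30154 entries, those that reached 10 in 3 or more libraries, and p-values were Benjamini-Hochberg adjusted within each of 9 comparisons: the 3 pairs of muscle groups, and each muscle group against its periosteum and bone marrow counterpart. Genes at an adjusted p under 0.05 and a log2 change beyond 1.5 were called. On simulated data for muscle P2 against P1 (18443 genes), 51 of 200 genes changed by 3 on the log2 scale passed the call rule with the simulated sign, beside 2 unchanged genes.

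Named genes were the 10 members and overlapping antisense genes, all other fast and slow fibre genes of hand-written lists, fibre type regulators called in a muscle comparison, genes among the 3 with the highest mean muscle level of each further list, and the 5 nearest profiles per fibre class. Myh6, Ube2c, Rabep2, Gm43361, Pax7 and Myf5 were chosen after their values were seen. Some genes that this rule names are not reported here. Members and lists were chosen with earlier results of these data known. Positions and transcript lengths came from GENCODE M21 (GRCm38), which held 29732 of the identifiers. Alternatives were a pseudocount of 0.1 or 5, the table without a filter, a minimum mean of 50, eBayes without trend, the replicate number as a block, rescaled totals, quantile normalization, the compared groups alone and each library left out. Python 3.11.15, pandas 2.3.3 and matplotlib 3.10.9 were used for summaries and figures.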

Additional observations from a re-analysis of the deposited data

How the results depend on the processing

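Between muscle P2 and P1, 6 members were called, 2 with a pseudocount of 0.1, 9 with the compared groups alone and 2 to 6 with a library left out. Between P1 and P3, 1 was called, 0 with a pseudocount of 0.1, 3 with a pseudocount of 5, 2 after quantile normalization, 4 with the compared groups alone and 0 to 0 with a library left out. With a library left out, the count of 0 for P3 against periosteum ran from 0 to 1, and that of 4 for P3 against bone marrow from 2 to 3 (3 to 5 under the other settings). Over all genes, 86 were called between P1 and P3, against 40 with a pseudocount of 0.1, 229 with 5, 213 after quantile normalization and 766 with the groups alone. The groups alone also gave 2487 against 1514 for P2 and P1 and 3810 against 2057 for P2 and P3. Reversed directions, none called, arose only for P3 against other tissues. After quantile normalization Myh7 stood at -1.16 and Tnnc1 at -1.52 against periosteum, and Tnnt1 at -0.7 and Tnnc1 at -0.21 against bone marrow. Rescaled totals put Tnnt1 at -0.21 against bone marrow, and leaving out a library put it at -0.29, -0.008 and -0.041 (range -0.29 to 0.25), and Tnnc1 against periosteum at -0.32 (range -0.32 to 0.63). The cause was not tested. Of 810 member results under the other settings, 762 kept their direction and side of the threshold, as did 491 of 540 with a library left out.

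Between libraries of equal replicate number, deviations from the group means correlated with r from -0.11 to 0.079 in 36 pairs of groups. A library was closest to its own number in 77 of 216 cases. Whether this check could detect a shared animal was not tested, so such libraries may still be related. With the replicate block, 1478 genes were called between P2 and P1, 2035 between P2 and P3 and 76 between P1 and P3. Among members, Atp2a1 in muscle P1 against periosteum P1 and Myh2 in muscle P3 against bone marrow P3 lost their calls and Tnnc1 in muscle P1 against periosteum P1 gained one. Read depth is unknown, so low values carry no counting error here.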
